A study of Mus musculus with 12 samples.

Results

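The copine family was examined in input RNA-seq libraries of mouse neurospheres, 3 from wild-type and 3 from Ythdf2-/- embryos. The family was taken up because Cpne7 was lower in the Ythdf2-/- libraries once wild-type replicate 3 was left out, and its members were the 9 gene rows named Cpne1 to Cpne9 among the 24525 genes counted. All 9 were found in the count files. The family was thus chosen by the measured counts of Cpne7 in these libraries, and those values are described without a test. Whether the other copines followed Cpne7 was asked library by library and in a fit across all genes.

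The neurospheres are spheres of neural stem/progenitor cells (NSPCs) grown from E14.5 C57BL/6 forebrain with EGF and bFGF and used at passage P1, with no other treatment. Ythdf2 encodes a reader protein that binds N6-methyladenosine (m6A) in mRNA and promotes its decay. The Ythdf2-/- cells carry a germline deletion of the 5′ end of the gene, made by crossing mice with LoxP sites to mice with ubiquitous Cre, so every cell type of the embryo lacked it. The paper calls the 3 libraries of a genotype biological replicates. Neither it nor the labels tie them to single embryos, and the tests measure the spread between these libraries. The paired m6A-IP samples were not analysed here.

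Copines are cytosolic proteins that bind membrane phospholipids in a calcium-dependent way through a pair of C2 domains, the same kind of domain that synaptotagmins and conventional protein kinase C use. Their C-terminal part is an A domain, related to that of von Willebrand factor, through which they bind partner proteins. Cpne1, Cpne2 and Cpne3 are widely expressed, whereas Cpne6, also called N-copine, is known from neurons of the hippocampus and Cpne7 from odontoblast differentiation.

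Because Ythdf2 acts on m6A, the GGACT sequences of the copine mRNAs are shown, GGACT being a frequent core of the m6A consensus. A match describes the letters only, and no m6A value was examined. Cpne7 lies on the plus strand at chr8:123117313-123135185 (GRCm38, also called mm10), and its single RefSeq transcript of 2405 bases in 15 exons held 2 GGACT, both in the coding sequence. In the windows below GGACT is in capitals and the strand is that of the gene. The first pair are the sites of Cpne7, at chr8:123126636-123126656 and chr8:123127353-123127373. The next is the Cpne6 site at chr14:55514565-55514585, which stands as far before the end of the stop codon, 888 bases, as the second Cpne7 site.
Cpne7, first site: ctggtctgGGACTatgactcc
Cpne7, second site: gcccagtgGGACTgtgtgaat
Cpne6: atgcagtgGGACTgtatcaac
The last 4 are sites of other copines, 756 to 798 bases before the end of the stop codon, at chr2:156077799-156077819 (minus strand), chr8:94557435-94557455 (plus), chr9:104993843-104993863 (plus) and chr15:90540237-90540257 (minus).
Cpne1: tccttcctGGACTatgtgatg
Cpne2: tcattcctGGACTacattctg
Cpne4: tccttcttGGACTacatcatg
Cpne8: tccttcctGGACTatattaaa
Searched on the transcript strand alone, Cpne7 held 0.832 GGACT per kilobase, at the 36.5th percentile of 13045 tested genes with a RefSeq transcript. The median of those genes was 1.05 per kilobase, and 92.0% of them held at least 1. Cpne3 was the sparsest copine, with 2 sites or 0.354 per kilobase, and Cpne4 the densest, with 8 sites or 2.11 per kilobase. Cpne8, which was low in 2 of the 3 Ythdf2-/- libraries, held 4 sites (1.203 per kilobase), and Cpne1, which varied least, also held 4 (1.14 per kilobase).

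The libraries held 11029827 to 13185778 counted reads. Ythdf2 itself, the targeted gene, was at 71.9, 73.3 and 91.4 counts per 1000000 reads (CPM, scaled by TMM) in the wild-type libraries and 11.7, 14.7 and 11.1 in the Ythdf2-/- libraries, so the labels held. Wild-type replicate 3 stood apart. Its summed astroglial markers were 13698 CPM against 6074 and 7187 in the other wild-type libraries, its oligodendrocyte lineage markers 4424 against 1765 and 1740, and its neural progenitor markers 3399 against 6486 and 6065. The 3 Ythdf2-/- libraries held 4275 to 10962, 1861 to 2169 and 4826 to 6531 CPM on the same lists. The sums did not hold for each marker. Slc1a3 was lower in wild-type replicate 3 (1872 CPM against 2289 and 2552) and S100b lay between the other wild-type libraries. The remaining astroglial markers were higher there. Olig1 (547 CPM against 918 and 874), Olig2 and Cspg4 were lower there, while the remaining oligodendrocyte lineage markers were higher. The low progenitor sum of wild-type replicate 3 came from Nes (264 CPM against 1194 and 1060), Vim and Fabp7, while the other 5 of the 8 progenitor markers were higher there than in wild-type replicates 1 and 2, such as Sox2 (551 against 349 and 316) and Hes5 (219 against 31.1 and 27.9). All 8 were detected in every library. Microglia and macrophage markers summed to 3.58 to 6.56 CPM, with Ptprc and C1qa at 0 reads in every library, and endothelial markers to 1.01 to 3.51 CPM, with Cldn5 at 0. Neuronal markers summed to 1492 to 2577 CPM and mesenchymal markers to 1.33 to 32.7 CPM, both highest in wild-type replicate 3. There Pdgfrb alone gave 31.8 CPM of the mesenchymal sum while Acta2 was lower (0.275 CPM against 2.74 and 2.29), and Dcx was higher (315 CPM against 10.01 and 13.1) while Gap43 was lower (55.8 against 176 and 152). The libraries also differed in reads on 4 Y-linked genes, with 1111, 1638 and 1 in wild type and 0, 1 and 2147 in Ythdf2-/-.

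Copine transcripts together took a similar part of each library. They summed to 2432, 2856 and 2211 reads in wild type and 2211, 2612 and 2711 in Ythdf2-/-, or 208, 217 and 200 against 188, 199 and 215 CPM without TMM scaling. The genotypes overlapped in this sum. Its make-up, however, differed between libraries. Cpne7 supplied 12.3% and 11.5% of the copine reads in wild-type replicates 1 and 2, 0.136% in replicate 3, and 1.76%, 1.84% and 2.03% in the Ythdf2-/- libraries. Cpne3 supplied 32.2% to 46.3% in wild type and 36.3% to 49.9% in Ythdf2-/-, and Cpne1 27.8% to 28.1% and 28.1% to 34.2%.

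**Figure D1:**
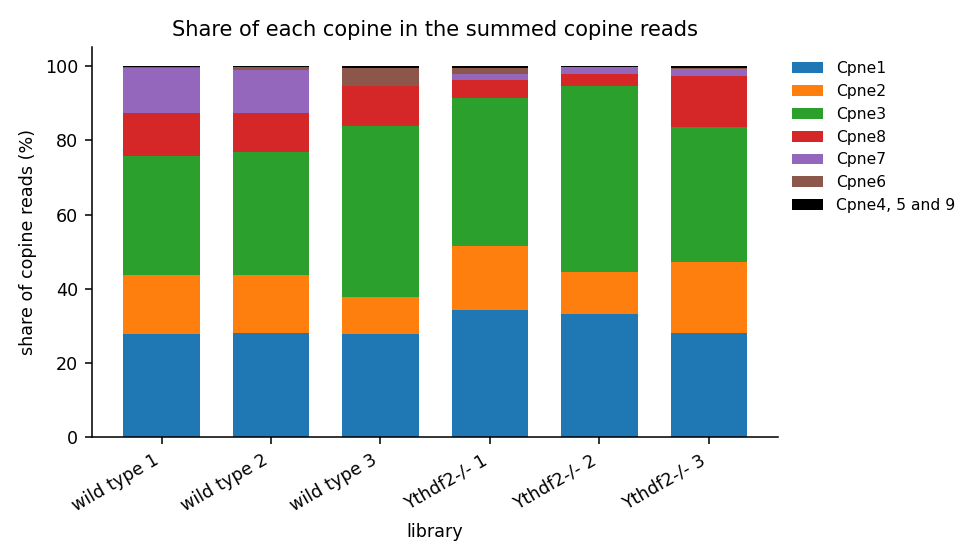
Share of each copine in the summed copine reads (%, vertical axis) of the 3 wild-type and 3 Ythdf2-/- libraries (bars). Cpne7 forms 12.3% and 11.5% of wild-type replicates 1 and 2 and 0.136% to 2.03% of the other 4 libraries.

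Cpne7 was abundant in 2 of the 6 libraries. It had 298, 327 and 3 reads in the wild-type libraries and 39, 48 and 55 in the Ythdf2-/- libraries. Normalized, these were 25.5, 25.0 and 0.275 CPM against 3.33, 3.55 and 4.43 CPM. Wild-type replicate 3 was the lowest of all 6 libraries, and its 3 reads have a 95% exact Poisson interval of 0.0566 to 0.802 CPM, which covers counting error only. In RNA from whole cultures, fewer cells that express a gene and less of its RNA per cell cannot be told apart. The groups therefore overlapped over 3 against 3 libraries, and did not overlap once wild-type replicate 3 was left out.

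The size of the Cpne7 difference depended on that library. With all libraries, the wild-type mean of Cpne7 was 16.9 ± 14.4 CPM and the Ythdf2-/- mean 3.77 ± 0.580 CPM (SD, n = 3 each), and the fitted log2 fold change was -2.16 (SE 1.18). Without wild-type replicate 3 the wild-type mean was 25.2 ± 0.387 CPM (SD, n = 2), which is 6.70 times the Ythdf2-/- mean. The fitted value was then -2.74 (SE 0.182). Cpne7 was chosen by its change in this set of libraries, so this SE is neither a test nor a measure of precision.

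The low value in wild-type replicate 3 can be read against other genes. Of 9693 tested genes that averaged at least 10 CPM in wild-type replicates 1 and 2, 230 (2.37%) had at most 10% of that average in replicate 3. Cpne7, at 1.09% of the average, ranked 30th from the lowest. The median gene stood at 0.961 of it. The marker sums that set this library apart are given above, and their part in the Cpne7 value was not tested. Y-linked reads and Cpne7 stood as follows. Wild-type replicates 1 and 2 carried 1111 and 1638 such reads with 25.5 and 25.0 CPM of Cpne7, and replicate 3 carried 1 with 0.275 CPM. Ythdf2-/- replicate 3 carried 2147 with 4.43 CPM, and replicates 1 and 2 carried 0 and 1 with 3.33 and 3.55 CPM. With a term for these reads, the fitted Cpne7 value was -0.34 with all libraries and -2.51 without wild-type replicate 3. The latter value rests on Ythdf2-/- replicate 3 alone, the only Ythdf2-/- library with Y-linked reads as in wild-type replicates 1 and 2.

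**Figure D2:**
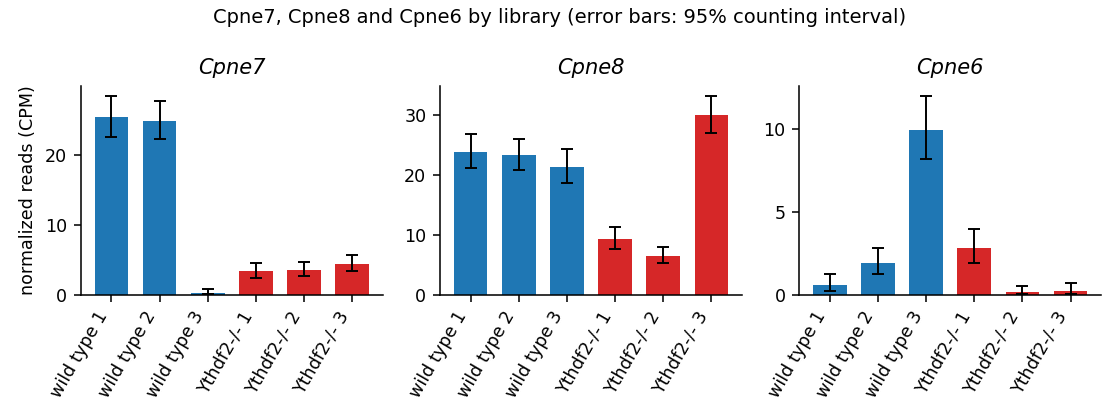
Normalized reads (CPM, bars, axis from 0) of Cpne7, Cpne8 and Cpne6 in each library, with 95% exact Poisson intervals that cover counting error only. Cpne7 is high in wild-type replicates 1 and 2, Cpne8 low in Ythdf2-/- replicates 1 and 2, and Cpne6 highest in wild-type replicate 3.

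No other copine was lower in all 3 Ythdf2-/- libraries than in the wild-type libraries, with or without wild-type replicate 3. Of the 9 members, 6 passed the filter on low counts, leaving 5 beside Cpne7 to test. In edgeR's quasi-likelihood fit with Benjamini-Hochberg adjustment over all genes, 0 of these 5 passed an adjusted p of 0.05 with all 6 libraries, and 0 of the 5 had an unadjusted p under 0.05. Over all genes tested, the share called was 0% by the adjusted p and 3.63% by the unadjusted p. Without wild-type replicate 3 the counts were again 0 of 5 and 0 of 5, where 0.0151% and 16.6% of all genes were called. DESeq2, limma-voom and limma-voom with sample quality weights also called 0 of the 5 in either set of libraries. They called 0.237%, 0% and 4.82% of all genes with 6 libraries. Without wild-type replicate 3 they called 2.89%, 0.0151% and 10.5%. In that set DESeq2 gave Cpne6 no adjusted p, so Cpne6 could not be called by it. With the term for Y-linked reads the count was also 0 of 5, against 0.0991% and 0% of all genes. A p that misses the threshold does not show that a gene was unaltered, and the errors given for each member below show what could be resolved.

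**Figure D3:**
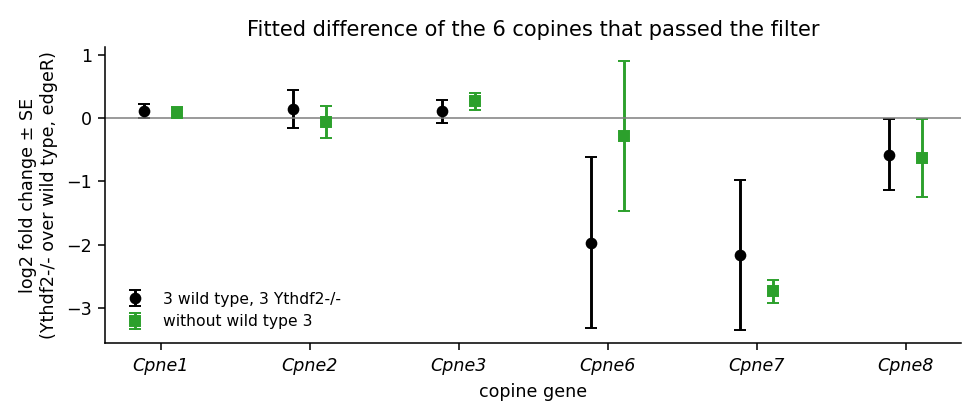
Fitted log2 fold change (Ythdf2-/- over wild type, points) with its standard error (bars) for the 6 copines that passed the filter, with all 6 libraries and without wild-type replicate 3. Cpne1 lies near 0 with a narrow error in both fits, and Cpne6 and Cpne8 have wide errors. Cpne7 was chosen by its own values, so its error without wild-type replicate 3 does not measure precision.

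Cpne8, a copine of the same domain structure, was lower in 2 of the 3 Ythdf2-/- libraries. It had 278, 305 and 233 reads in wild type and 109, 88 and 373 in Ythdf2-/-, or 23.8, 23.3 and 21.3 CPM against 9.29, 6.52 and 30.0 CPM. Ythdf2-/- replicates 1 and 2 were below every wild-type library and replicate 3 above every one, at 3.80 times the mean of the other two. Unlike Cpne7, Cpne8 was not low in wild-type replicate 3. The means were 22.8 ± 1.30 and 15.3 ± 12.8 CPM (SD, n = 3 each).

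In the fit, the log2 fold change of Cpne8 was -0.58 (SE 0.561, edgeR adjusted p = 0.999) with all libraries and -0.62 (SE 0.618, edgeR adjusted p = 0.641) without wild-type replicate 3. In the latter set it was -0.96 by limma-voom, -1.03 with quality weights (adjusted p = 0.082) and -1.59 with the replicate number as a block (edgeR adjusted p = 0.093). With the other libraries kept, leaving out Ythdf2-/- replicate 3 gave -1.53 (edgeR adjusted p = 0.9998), and without Ythdf2-/- replicate 1 or 2 the value was -0.31 or -0.20. With wild-type replicate 3 left out as well, the value without Ythdf2-/- replicate 3 was -1.58 (edgeR adjusted p = 0.080). Without Ythdf2-/- replicate 1 or 2 it was then -0.37 or -0.25. Ythdf2-/- replicates 1 and 2 carried 0 and 1 Y-linked reads and replicate 3 carried 2147. With a term for these reads, the Cpne8 value was -0.52 with all libraries and 0.35, the opposite direction, without wild-type replicate 3. In the latter set both wild-type libraries carried such reads and only replicate 3 of Ythdf2-/- did. The value of 0.35 thus compares that single Ythdf2-/- library with wild-type replicates 1 and 2. The Pearson chi-square of the reads per degree of freedom, which is near 1 for counting error alone, was 0.835 among the wild-type libraries and 137 among the Ythdf2-/- libraries, so the variation of Cpne8 lay within the Ythdf2-/- group.

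Cpne6, the hippocampal neuron copine, was low throughout and varied most widely after Cpne7. It had 7, 25 and 109 reads in wild type and 33, 2 and 3 in Ythdf2-/-, or 0.599, 1.91 and 9.98 CPM against 2.81, 0.148 and 0.241 CPM. Wild-type replicate 3, where Cpne7 was lowest, was here the highest, at 3.55 times the next library. Ythdf2-/- replicate 1 exceeded wild-type replicates 1 and 2, so the groups overlapped, although Ythdf2-/- replicates 2 and 3 were below every wild-type library. The fitted log2 fold change was -1.97 (SE 1.35, edgeR adjusted p = 0.999), and -0.28 (SE 1.19, edgeR adjusted p = 0.928) without wild-type replicate 3. Without Ythdf2-/- replicate 1 it was -4.33, so the size of this value rested on single libraries. The neuronal markers of wild-type replicate 3 summed to 2577 CPM against 1492 and 1522 in the other wild-type libraries, and their part in the Cpne6 value was not tested.

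Cpne1 was the steadiest member. It had 677, 803 and 614 reads in wild type and 757, 866 and 762 in Ythdf2-/-. These were 57.9, 61.3 and 56.2 CPM against 64.6, 64.1 and 61.3 CPM, with means of 58.5 ± 2.59 and 63.3 ± 1.76 CPM (SD, n = 3 each). It was the only copine whose groups did not overlap with all 6 libraries, with Ythdf2-/- higher, where 10.2% of all genes tested had no overlap and 5.24% were also higher, and the gap between the nearest libraries was small (61.28 against 61.31 CPM). The fitted log2 fold change was 0.11 (SE 0.110, edgeR adjusted p = 0.999), and its chi-square per degree of freedom was 1.39 in wild type and 0.605 in Ythdf2-/-. Its spread over the 6 libraries was at the 2.43rd percentile of genes tested. Cpne1 shares 229 exon bases on the same strand with Rbm12, an RNA-binding protein gene, so reads there could count for either. Rbm12 had a log2 fold change of -0.26 (SE 0.193, edgeR adjusted p = 0.999).

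Cpne3, known for binding the receptor ErbB2, was highest in Ythdf2-/- replicate 2 and wild-type replicate 3. It had 782, 943 and 1023 reads in wild type and 880, 1304 and 983 in Ythdf2-/-. As CPM these were 66.9, 72.0 and 93.6 against 75.04, 96.6 and 79.1, so the groups overlapped with all libraries through wild-type replicate 3 alone. Without it all 3 Ythdf2-/- libraries were higher, as was the case for Cpne1. These were 2 of the 5 copines tested beside Cpne7, in a set where 38.9% of all genes did not overlap (18.8% higher and 20.1% lower). The fitted log2 fold change of Cpne3 was 0.11 (SE 0.180, edgeR adjusted p = 0.999) and 0.27 (SE 0.135, edgeR adjusted p = 0.367) without wild-type replicate 3.

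Cpne2 moved between libraries within both groups. It had 386, 445 and 219 reads in wild type and 381, 299 and 519 in Ythdf2-/-, or 33.0, 34.0 and 20.0 CPM against 32.5, 22.1 and 41.8 CPM. Wild-type replicate 3 and Ythdf2-/- replicate 2 were the lowest, and Ythdf2-/- replicate 3 the highest. The fitted log2 fold change was 0.15 (SE 0.306, edgeR adjusted p = 0.999) and -0.061 (SE 0.256, edgeR adjusted p = 0.927) without wild-type replicate 3, so the direction turned with that library.

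Cpne4, Cpne5 and Cpne9, copines known mainly from neural tissue, were near the floor and were not tested. Cpne4 had 0, 0 and 1 reads in wild type and 0, 1 and 1 in Ythdf2-/-. Cpne5 had 0, 4 and 4 against 6, 1 and 2 reads, and Cpne9 had 4, 4 and 5 against 6, 3 and 13. A library at 0 reads allows up to 3, or 0.229 to 0.257 CPM in the 3 libraries where a copine was at 0 (0.282 to 0.316 CPM by the upper bound of the 95% exact Poisson interval), so absence cannot be read from these counts.

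Per length, Cpne1, Cpne2 and Cpne3 were the highest copines by their medians. On the scale of RPKM (CPM divided by the exon length in kilobases), the median level over the 6 libraries was 17.4 for Cpne1, 14.2 for Cpne2, 13.6 for Cpne3, 6.00 for Cpne8, 1.66 for Cpne7, 0.546 for Cpne6, 0.144 for Cpne9, 0.0534 for Cpne5 and 0.00978 for Cpne4. Between neighbours in this order, only Cpne3 and Cpne8 had ranges that did not overlap, with every library of Cpne3 above every library of Cpne8. Cpne1, Cpne2 and Cpne3 stood at the 58.9th to 65.9th percentile of the genes tested. In wild-type replicates 1 and 2, Cpne7 was at 10.6 and 10.4 RPKM, above Cpne8 at 6.40 and 6.27. In the Ythdf2-/- libraries it was at 1.38, 1.48 and 1.84 RPKM, below Cpne8 at 2.50, 1.75 and 8.08.

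**Figure D4:**
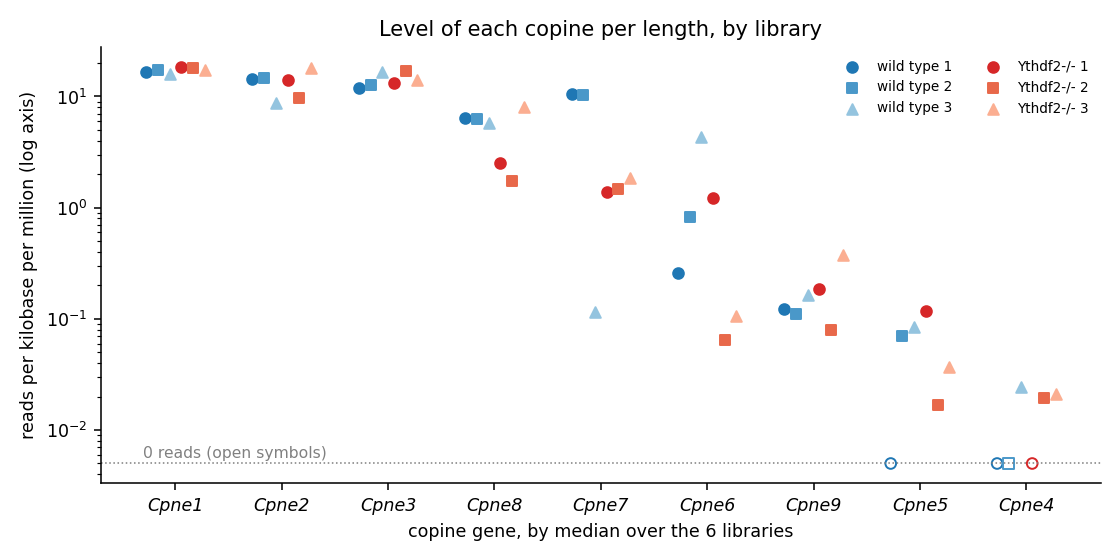
Level of each copine in each library in RPKM (log axis), ordered by the median over the 6 libraries, with open symbols on the dotted line for 0 reads. Cpne1, Cpne2 and Cpne3 lie between 8.71 and 18.3, while Cpne7 ranges from 0.114 to 10.6.

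The genes nearest to Cpne7 on the chromosome differed far less between the genotypes. Among the 5 tested genes on each side, all within 299 kb, fitted log2 fold changes without wild-type replicate 3 ran from -0.24 to 0.34, and the smallest edgeR adjusted p was 0.221. Rpl13, a ribosomal protein gene 12.1 kb away, had 6265, 5823 and 3408 reads in wild type and 4425, 6532 and 4793 in Ythdf2-/-. Spg7, a mitochondrial protease gene 19.6 kb away, had 1198, 1357 and 582 against 1185, 1355 and 1384 reads.

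The genes whose log2 CPM tracked Cpne7 most closely over the 6 libraries were Laptm4b, Myl12a, Gpr3, Cwc15 and H60b, with Pearson r of 0.998, 0.998, 0.998, 0.997 and 0.997. These are the highest among all genes tested, over 6 points that share a library and its depth, and are given as a description. Their changes were smaller than that of Cpne7. Laptm4b, a lysosomal membrane protein gene, stood in wild-type replicate 3 at 54.2% of its average in wild-type replicates 1 and 2 and in the Ythdf2-/- libraries at 75.3% to 79.4%. Myl12a, a myosin regulatory light chain gene, stood at 44.4% and at 66.7% to 73.6%. H60b, a ligand gene of the receptor NKG2D, had the largest change, with 66, 66 and 4 reads in wild type and 20, 21 and 27 in Ythdf2-/-. Gpr3, a G protein-coupled receptor gene, had 27, 30 and 11 against 19, 21 and 20 reads, and Cwc15, a spliceosome gene, stood at 83.5% in wild-type replicate 3 and at 90.8% to 94.6% in Ythdf2-/-.

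**Figure D5:**
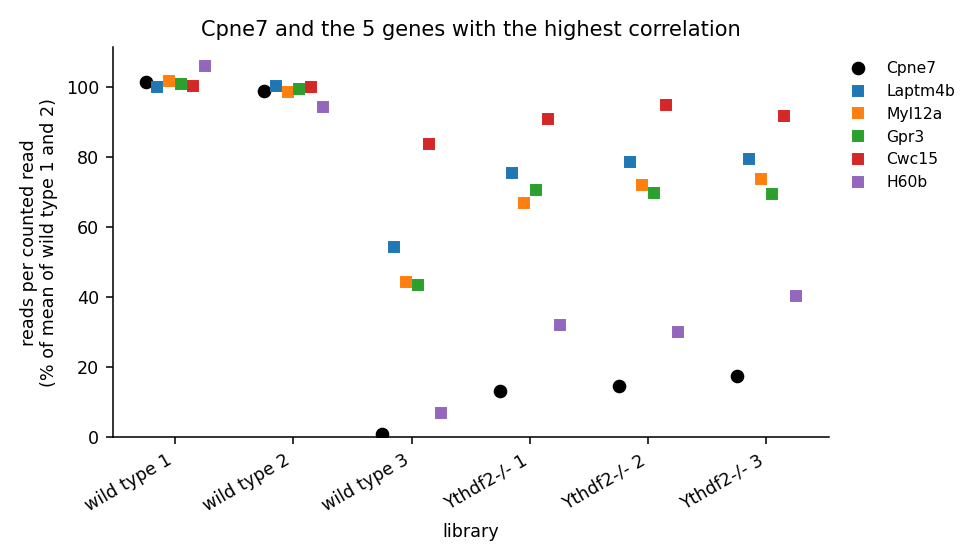
Reads per counted read of Cpne7 and of the 5 genes with the highest Pearson correlation with it, as a percentage of the mean of wild-type replicates 1 and 2 (vertical axis), by library. All 6 genes are lowest in wild-type replicate 3, where Cpne7 is at 1.08% and Cwc15 at 83.5%.

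Other proteins that bind membranes with calcium were set beside the copines. Of 53 C2-domain membrane-binding proteins listed, 37 were tested, with 15 higher and 22 lower in Ythdf2-/-, 0 past the adjusted p, and a median log2 fold change of -0.054 against -0.011 over all genes. Without wild-type replicate 3, 26 of 40 were higher and 14 lower, with a median of 0.16 against 0.014. The 3 most abundant were Syt11, a synaptotagmin, and the kinases Prkcb and Prkca. Syt11 was at 652, 712 and 1183 CPM in wild type and 804, 674 and 935 in Ythdf2-/-, with wild-type replicate 3 the highest. Prkcb and Prkca had log2 fold changes of 0.15 (SE 0.180) and -0.17 (SE 0.271), and Prkca turned to 0.16 without wild-type replicate 3. Syt9, a synaptotagmin named after its values were seen, was called higher with quality weights (limma adjusted p = 0.028), which called 4.82% of all genes. Without wild-type replicate 3 it was called by DESeq2 (adjusted p = 1.9e-04), which called 2.89%. Its edgeR adjusted p was 0.999, and 0.151 without that library. Myof, a ferlin named in the same way, was called lower with quality weights (limma adjusted p = 0.042). Pclo and Unc13b were also named in this way. Without wild-type replicate 3, quality weights called Pclo higher (limma adjusted p = 0.047), beside 10.5% of all genes. Leaving out Ythdf2-/- replicate 2 as well, edgeR called Unc13b lower (adjusted p = 0.037), beside 782 genes in all.

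The annexins, which bind phospholipids through their own calcium-binding repeats in place of C2 domains, were mostly lower. Of 12 listed, 9 were tested, 8 of them lower in Ythdf2-/- and 1 higher, against 51.9% lower over all genes. Of the 9, 0 passed the adjusted p and 2, both lower, had an unadjusted p under 0.05 (1.82% over all genes). The median log2 fold change was -0.85. Without wild-type replicate 3 the median was -0.64, with 8 of 9 lower (48.3% over all genes) and 4 of them at an unadjusted p under 0.05 (8.58%). The 6-library median depended on the fit, at -0.29 with the term for Y-linked reads and -0.46 by limma-voom, with 7 of 9 lower in each. With sample quality weights it was -1.04, and leaving out Ythdf2-/- replicate 2 alone gave -1.12, with 9 of 9 lower in each. Sample quality weights called 2 annexins with 6 libraries (4.82% of all genes) and 4 without wild-type replicate 3 (10.5%). In the latter set DESeq2 called 2 (2.89% of all genes), and edgeR without Ythdf2-/- replicate 2 as well called 3, beside 782 genes in all. Summed annexin reads were 230, 230 and 132 CPM in wild type and 113, 124 and 99.9 CPM in Ythdf2-/-, so that, as for Cpne7, wild-type replicate 3 lay well below the other wild-type libraries.

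Anxa6, the most abundant annexin after Anxa5, was at 67.8, 56.6 and 13.3 CPM in wild type and 18.3, 37.8 and 20.4 in Ythdf2-/-. Wild-type replicate 3 was the lowest library of Anxa6, as it was of Cpne7. Its log2 fold change was -0.85 (SE 0.607, edgeR adjusted p = 0.999) and -1.28 (SE 0.316, edgeR adjusted p = 0.190) without that library, where the adjusted p was 0.0096 by DESeq2 and 0.012 with quality weights. Anxa2, a cell surface and membrane trafficking annexin, was at 37.9, 39.8 and 28.0 CPM against 6.22, 19.0 and 2.98 CPM. Its groups did not overlap, with Ythdf2-/- lower, as in 4.92% of all genes, and its log2 fold change was -1.90 (SE 0.645, edgeR adjusted p = 0.999). With quality weights it was -2.67 (limma adjusted p = 0.027), and without wild-type replicate 3 and Ythdf2-/- replicate 2 it was -3.08 (edgeR adjusted p = 0.017). Anxa5, the phosphatidylserine-binding annexin, was at 63.0, 71.9 and 49.2 CPM against 64.9, 42.4 and 55.4 CPM, and the groups overlapped.

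All 10 reported copine partners were tested. With all libraries 9 were lower and 1 higher, where 51.9% of all genes were lower, 0 passed the adjusted p, and the median log2 fold change was -0.087 against -0.011 over all genes. Without wild-type replicate 3, 6 were lower and 4 higher, the median was -0.16 against 0.014, and 3, all lower, had an unadjusted p under 0.05, as did 16.6% of all genes (8.58% lower). In that set limma-voom with quality weights, which called 10.5% of all genes, called 3 partners, with Ppp5c and Map2k1 lower (-0.43 and -0.37, adjusted p of 0.023 and 0.046) and Ntrk2 higher (0.61, adjusted p = 0.046). The most abundant were Ntrk2, the TrkB neurotrophin receptor, Ncl, a nucleolar protein, and Rack1, a ribosomal scaffold protein. Ntrk2 was at 891, 992 and 2946 CPM in wild type and 1632, 1166 and 1063 in Ythdf2-/-, with wild-type replicate 3 far above the rest. Its log2 fold change turned from -0.32 to 0.45 without that library. Ncl and Rack1 had log2 fold changes of -0.0077 (SE 0.201) and -0.069 (SE 0.236), or -0.14 and -0.24 without wild-type replicate 3.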

How the data were processed

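NSPC input libraries (3 wild-type, 3 Ythdf2-/-) were grouped by the genotype in the labels. The authors fragmented poly(A) RNA, made stranded libraries and aligned reads to mm10. The authors' deposited counts are raw reads per gene, and the strand setting of the counting is not given in the sources used here. The authors also deposited expected counts, TPM and FPKM in an RSEM-format table (processing notes name RSEM 1.2.15, Bowtie2 2.2.9 and featureCounts, while the paper's methods name other programs), whose expected counts sum to 1.97% to 2.40% of the raw counts. The TPM values were not used.

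From the raw counts, 13112 genes passing filterByExpr (13283 without wild-type replicate 3) were fitted with edgeR 4.0.16 (TMM, robust glmQLFit, glmQLFTest, genotype only) in R 4.3.3. The edgeR SE is the absolute log2 fold change divided by the square root of the F statistic of the test. DESeq2 1.42.0 and limma 3.58.1 were alternatives. CPM used TMM factors, correlations log2 CPM with a prior count of 2, and FPKM fits log2(FPKM + 1), a scale that understates changes of low genes. With 3 against 3 libraries an exact permutation test cannot go below 0.1. The fits were tested on simulated data.

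Copines, lists and alternatives were chosen with earlier results of these data known. Named genes were the copines, Ythdf2, genes sharing exons with a copine, the 3 most abundant members of each list and any past adjusted p 0.05 in the edgeR fits of the report, and the 5 genes best correlated with Cpne7. The chromosomal neighbours of Cpne7 and single markers were added after values were seen. So were list members called by alternative fits (Syt9, Myof, Pclo, Unc13b, Ppp5c, Map2k1, Anxa3). Same-numbered wild-type and Ythdf2-/- libraries did not deviate together (correlations of -0.248, -0.244 and -0.394), so replicate numbers were not taken as pairs. Transcripts, positions and sequences were from RefSeq on GRCm38, where all 9 copines matched.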

Additional observations from a re-analysis of the deposited data

How the results depend on the processing

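Over all tools, filters, normalizations, covariates and omissions tried that kept at least 2 libraries per genotype, 0 of the 5 copines beside Cpne7 passed the adjusted p in either set. Not every fit could call Cpne6. It failed the minimum of 10 counts per library in both sets. Without wild-type replicate 3 it also had no adjusted p by DESeq2 and none on leaving out Ythdf2-/- replicate 1 as well. Genes called over all 6 libraries went from 0 (476 at an unadjusted p under 0.05) to 31 by DESeq2, 632 with sample quality weights, 13 with the Y-linked term, 1 each with RLE size factors, without a filter and with a minimum of 10 counts per library, and 0 to 2 on leaving out each library, 2 of them without wild-type replicate 3. Genes called without wild-type replicate 3 went from 2 to 354 by DESeq2, 1389 with quality weights, 11 without a filter and 0 with the Y-linked term. Leaving out a further library gave 0 to 782, namely 782 without Ythdf2-/- replicate 2, 14 without Ythdf2-/- replicate 3 and 0 without any of the others. With the replicate number as a block, 13 genes were called in that set, and 0 of the 5 copines in either set. Called members of the related lists went from 0 to 4 with quality weights over 6 libraries. Without wild-type replicate 3 they went from 0 to 10 with quality weights, 6 without Ythdf2-/- replicate 2, 3 by DESeq2, and 1 each without a filter and with the block. Copines without overlap, counted over all 9 members, went from 1 to between 1 and 3 on leaving out a library. Without wild-type replicate 3 they were Cpne1, Cpne3 and Cpne7 (38.9% of all genes tested). Without Ythdf2-/- replicate 1, 2 or 3 they were Cpne1 with Cpne6, Cpne9 or Cpne8 (15.2%, 22.1% and 15.9%). Cpne9 had 3 to 13 reads and was not among the genes tested. Without wild-type replicate 1 or 2 only Cpne1 had no overlap (1904 and 1897 of 13112 genes).

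Directions turned for Cpne2 with 6 libraries (-0.027 with quality weights, and -0.088 to 0.36 on leaving out a library, below 0 without wild-type replicate 3 (-0.061) or Ythdf2-/- replicate 3) and without wild-type replicate 3 (0.32 with the Y-linked term, and -0.30 to 0.15 on leaving out a library, above 0 without Ythdf2-/- replicate 2). They turned for Cpne6 with quality weights (0.0091, and 0.13 without wild-type replicate 3). In the latter set leaving out a library gave -0.86 to 0.79, above 0 without wild-type replicate 2 (0.79) and without replicate 2 (0.24) or replicate 3 (0.18) of Ythdf2-/-. Cpne6 was further below 0 with the Y-linked term (-2.66, and -2.35 without wild-type replicate 3) and by limma-voom (-2.14 and -1.16). Without wild-type replicate 3, all values with the Y-linked term rest on Ythdf2-/- replicate 3 alone. Cpne8 turned in the deposited FPKM (0.054 at either pseudocount) and with the Y-linked term (0.35, without wild-type replicate 3). The cause was not tested. Cpne1 and Cpne3 kept their direction throughout, at 0.04 to 0.18 and 0.0051 to 0.52, and Cpne7 did at -2.87 to -0.34. Copines under about 1 CPM could not be resolved at this depth.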

Other observations

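The deposited RSEM-format table gave copines different values from the raw counts, on far fewer reads. Cpne4, Cpne5, Cpne6 and Cpne7 were listed at 0 in all 6 libraries, although Cpne7 had 770 raw reads in all, so the table says nothing of its change. Cpne8 was listed at 21.7, 23.6 and 31.3 expected counts in wild type and 25.7, 28.0 and 23.9 in Ythdf2-/-, where raw reads were 278, 305 and 233 against 109, 88 and 373. The low Cpne8 values of Ythdf2-/- replicates 1 and 2 were therefore not seen there. Its listed length was 700 bases in 5 of the 6 libraries, which is the length of the shortest of 3 RefSeq transcripts, of 4 exons, while the longest has 20 exons and 3324 bases. Cpne9 was listed at 48.1 expected counts in all against 35 raw reads, and Cpne1 at 4.53 against 4479.

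Anxa3, an annexin named after its values were seen, had a profile like that of Cpne7, at 37.1, 35.4 and 0.275 CPM in wild type and 6.99, 4.07 and 7.24 in Ythdf2-/-. Its log2 fold change was -1.99 (SE 1.24, edgeR adjusted p = 0.999), and -2.57 (SE 0.250, edgeR adjusted p = 0.103) without wild-type replicate 3. In that set DESeq2, which called 2.89% of all genes, gave it an adjusted p of 8.3e-15. Anxa3 was named for its values in these same libraries, so these p-values do not stand apart from that choice and are no test of it.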
